A study of Mus musculus with 2 samples.

Results

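The 10 CXC chemokine genes studied here were chosen by symbol. A group of 6 stands for chemokines that act on neutrophils or are released by platelets (Cxcl1, Cxcl2, Cxcl3, Cxcl5, Ppbp and Pf4). A group of 4 stands for chemokines that attract T cells (Cxcl9, Cxcl10, Cxcl11 and Cxcl16), though RefSeq lists Cxcl11 as a transcribed pseudogene in C57BL/6J. The chosen genes are 10 of the 18193 that the platform annotation names through probe sets assigned to exactly 1 gene. They were read by 15 of 34945 such probe sets. Expression was measured on Affymetrix arrays in bone marrow cells of C57BL/6J mice, either wild type or miR-155-/-, differentiated with 20 ng/ml GM-CSF for 7 days and then given medium with 10 ng/ml lipopolysaccharide (LPS), a bacterial cell wall component. The labels name dendritic cells, but the growth protocol speaks of macrophages. Each genotype was 1 array. Both received GM-CSF and LPS, no untreated cells were included, and neither the time in LPS nor the number of mice is stated in the labels. The comparison asks how these chemokine transcripts differ in LPS-treated dendritic cells that lack the microRNA miR-155.

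CXC chemokines are small secreted proteins that guide leukocytes through G protein-coupled receptors, and they are named for a pair of cysteines with another amino acid between them. Cxcl1, Cxcl2, Cxcl3 and Cxcl5 and the processed product of Ppbp recruit neutrophils through the receptor CXCR2, and myeloid cells make several of them quickly after LPS through the transcription factor NF-kB. Cxcl9, Cxcl10 and Cxcl11 are interferon-induced ligands of CXCR3, found on activated T cells and NK cells, and Cxcl16 is a membrane-bound ligand of CXCR6. Pf4 (platelet factor 4, or CXCL4) is stored in platelet granules, is also made by macrophages, and is not a typical CXCR2 ligand, so its place in the first group follows the rule and not a shared receptor.

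The microRNA removed in the knockout mice is shown first, since its loss defines the comparison, with its seed (bases 2 to 8) in capitals. Its mature sequence lies on the plus strand at chr16:84714143-84714165 in RefSeq's GRCm38.p6.
mmu-miR-155-5p: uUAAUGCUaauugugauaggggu

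The 250 bases upstream of 4 transcription starts are shown next, because Cxcl1, Cxcl2 and Cxcl3 are close relatives and Cxcl10 had the largest difference of the 10 genes. Sequences are from RefSeq, GRCm38.p6, 5′ to 3′ on the strand of the gene. Capitals mark matches to the NF-kB consensus on either strand and, in Cxcl10, also the interferon-stimulated response element (ISRE), searched as GAAANNGAAA on both strands. The regions are chr5:90890995-90891244 (plus strand) for Cxcl1, chr5:90903649-90903898 (plus) for Cxcl2, chr5:90785851-90786100 (plus) for Cxcl3 and chr5:92348890-92349139 (minus) for Cxcl10.
Cxcl1: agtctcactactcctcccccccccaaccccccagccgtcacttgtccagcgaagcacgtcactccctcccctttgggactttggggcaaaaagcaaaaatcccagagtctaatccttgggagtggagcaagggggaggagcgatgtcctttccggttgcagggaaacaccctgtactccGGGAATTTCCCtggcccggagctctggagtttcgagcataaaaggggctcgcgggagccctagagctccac
Cxcl2: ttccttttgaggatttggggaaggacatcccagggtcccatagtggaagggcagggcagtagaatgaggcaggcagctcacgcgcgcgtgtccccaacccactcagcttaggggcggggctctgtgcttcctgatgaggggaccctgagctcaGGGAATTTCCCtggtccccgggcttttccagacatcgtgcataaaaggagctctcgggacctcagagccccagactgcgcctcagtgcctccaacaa
Cxcl3: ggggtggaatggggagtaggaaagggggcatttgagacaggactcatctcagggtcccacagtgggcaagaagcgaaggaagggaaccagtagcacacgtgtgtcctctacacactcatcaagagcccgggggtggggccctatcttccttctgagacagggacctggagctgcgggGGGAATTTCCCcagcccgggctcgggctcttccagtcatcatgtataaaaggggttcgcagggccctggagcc
Cxcl10: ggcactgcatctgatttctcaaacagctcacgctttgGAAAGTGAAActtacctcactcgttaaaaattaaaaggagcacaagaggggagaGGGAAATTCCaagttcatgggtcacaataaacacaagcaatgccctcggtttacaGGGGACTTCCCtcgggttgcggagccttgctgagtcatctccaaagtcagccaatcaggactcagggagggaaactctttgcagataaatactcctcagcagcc

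Promoters of 7 of the 10 genes were matched in the RefSeq table, the others being those of Cxcl5, Cxcl11 and Cxcl16. The upstream regions of Cxcl1, Cxcl2 and Cxcl3 shared the 11 bases GGGAATTTCCC, which hold a match to the NF-kB consensus on each strand, the matches overlapping. The first of these bases lay at -71, -97 and -73 from the start, respectively. The same 11 bases occurred on either strand in 14 of 32851 upstream regions of this length (0.0426%). Cxcl10 had an ISRE match at -213 and NF-kB matches at -159, -104 and -103, of which the last was matched on both strands and overlaps the one before it. An NF-kB match was present in 7.25% of all upstream regions, an ISRE match in 2.98% and both in 0.164%. Neither motif was matched in these letters in the windows of Ppbp, Pf4 and Cxcl9.

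Signals below are intensities after quantile normalization, and a difference is the log2 value of the knockout array minus that of the wild-type array. No replicates exist, so no test was made and differences describe these arrays. The only error that can be read from them is the spread between probe sets of the same gene, an SD of 0.29 on the log2 scale over 11653 probe sets of 4410 genes, which holds no variation between mice or cultures. Values under the median of all normalized values, an intensity of 67.6 called the floor, were set to it, and 11878 genes had at least 1 array above it. In bulk RNA, fewer cells of a type and less RNA per cell cannot be told apart. The deposited intensities had medians of 58.4 (wild type) and 78.3 (knockout), and without scaling the median measured gene was higher by 0.54 in the knockout, so directions are relative to the bulk of genes. Mir155hg, from which the microRNA is processed, gave 1136 in the wild type and 159 in the knockout, though the position of this probe set relative to the deletion is unknown, so it is no full check of the labels.

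Of the T-cell-attracting genes, 4 of 4 were lower in knockout cells, with a median difference of -0.41, and of the neutrophil group 2 of 6 were lower and 4 higher, with a median of 0.20. Relative to the median gene the neutrophil group's median was 0.19 after quantile normalization, but 0.028 without scaling, 0.0042 with centring on the median and 0.0092 with scaling on hybridisation controls. By plain sign, not relative to the median gene, the count of lower T-cell-attracting genes was 3 of 4 with centring on the median. It was 2 of 4 without scaling, with scaling on hybridisation controls or with averaged probe sets. In deposited signal none of the 6 of the neutrophil group was lower. Relative to the median gene, 3 of 4 T-cell-attracting genes were lower without scaling. Cxcl16 then lay at -0.023 with centring on the median and -0.018 with scaling on hybridisation controls. Across all measured genes 48.5% were lower and 51.5% higher by any amount, and the median was 0.01. Cxcl10 alone reached 2-fold, at the edge of that limit, and no member was 2-fold higher, against 0.615% of all measured genes at least 2-fold lower and 0.572% at least 2-fold higher. The 2-fold call was lost under 5 of the 10 alternatives, with differences of -0.997 with a pseudocount, -0.985 with loess, -0.86 with centring on the median, -0.76 with scaling on hybridisation controls and -0.44 without scaling. At 1.5-fold, Cxcl10 and Cxcl11 were lower and Ppbp was higher, where 4.1% and 4.57% of all measured genes passed. Cxcl11 was under 1.5-fold under 4 alternatives, with differences of -0.52 with averaged probe sets, -0.49 with centring on the median, -0.39 with scaling on hybridisation controls and -0.07 without scaling. All 10 genes lay above the floor on both arrays at the probe set used, and 5 of them (Cxcl1, Cxcl5, Ppbp, Cxcl10 and Cxcl11) differed by more than the SD between probe sets, as did 32.7% of all measured genes. The ranges of the groups overlapped, from -1.003 to -0.01 for the T-cell-attracting and from -0.55 to 0.63 for the neutrophil group.

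**Figure D1:**
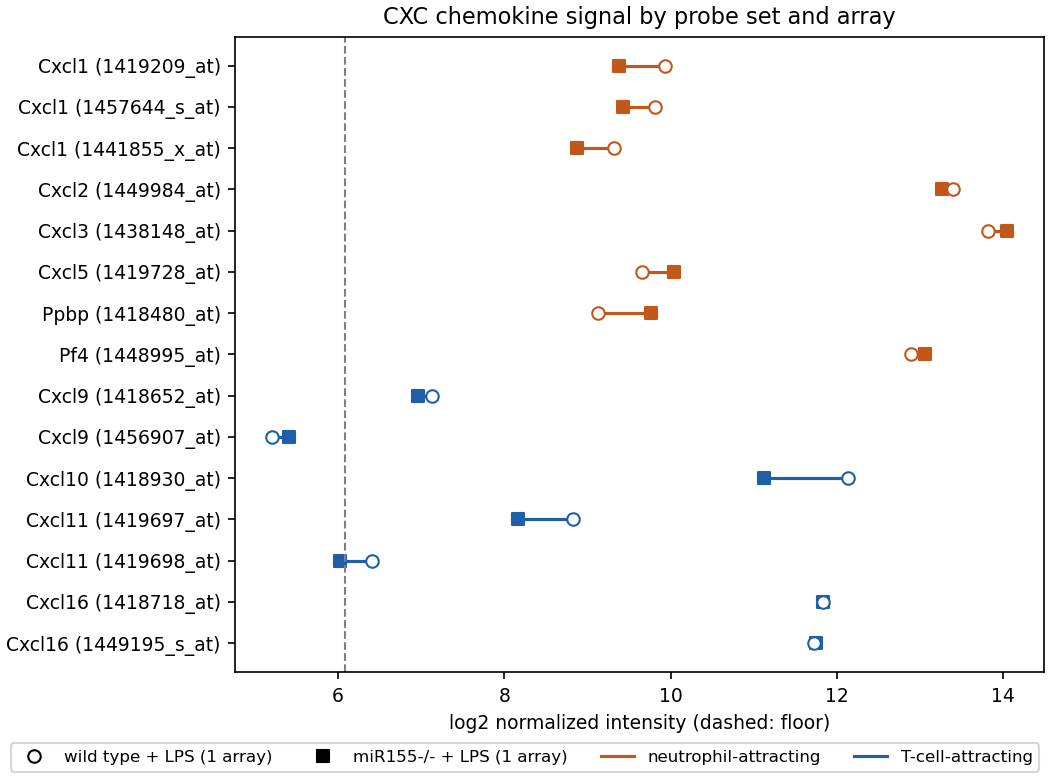
Log2 normalized intensity of the 15 probe sets of the CXC chemokine genes, with open circles for the wild-type and filled squares for the knockout array (1 array each) and a dashed line at the floor. The squares of Cxcl10, Cxcl11 and Cxcl1 lie left of their circles, those of Ppbp and Cxcl5 lie right, and those of Cxcl16 coincide with them.

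Cxcl10, also called IP-10, recruits CXCR3-bearing T cells. Its probe set gave 4481 in the wild type and 2236 in the knockout, 2.004-fold lower (difference -1.003). It was also lower before any scaling, at 3743 and 2763, on arrays where the median gene was higher in the knockout. Relative to the median of all measured genes its difference ranged from -1.02 to -0.98 over the settings tried. Of the 501 genes nearest to it in mean level, 4 (Cxcl10 included) had a difference as low or lower, and the central 90% of those genes ran from -0.41 to 0.39. It was read by 1 probe set only.

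Cxcl11, another CXCR3 ligand, gave 452 and 288, 1.57-fold lower (difference -0.65) after quantile normalization and under 1.5-fold lower with the 4 alternatives given above. Its second probe set was dimmer, at 84.7 in wild-type cells and 64.9, below the floor, in knockout cells, and was at least 1.25-fold lower. The RefSeq table for C57BL/6J lists Cxcl11 as a transcribed pseudogene, so its signal in this strain is that of a transcript only. Without scaling the brighter probe set had a difference of -0.07 and the dimmer one of 0.06.

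Cxcl9, or Mig, is a CXCR3 ligand whose induction depends largely on interferon gamma. It was dim (139 in the wild type, 124 in the knockout), with a difference of -0.17 that is smaller than the probe set SD. Its second probe set lay below the floor on both arrays (36.9 and 42.6). The sign of the Cxcl9 difference was not stable, being 0.02 both with scaling on hybridisation controls and with averaged probe sets, and 0.34 without scaling. Relative to the median gene, Cxcl9 was lower in 8 of the 9 alternatives that measured it, by up to 0.22 (-0.22). It was higher by 0.01 with averaged probe sets, which include the probe set below the floor. The interferon gamma gene Ifng, at 2.77 and 3.80, was far below the floor on both arrays.

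Cxcl16, which is anchored in the membrane and also acts as a scavenger receptor for oxidised lipoprotein, was the member closest to no difference. Its probe sets gave 3661 against 3636 and 3383 against 3445, differences of -0.01 and 0.03. Cxcl10's difference minus that of Cxcl16 was -1.01 to -0.98 under the 11 settings, and minus that of Cxcl9 it was -1.02 to -0.78 in the 10 settings where Cxcl9 was measured. Within the T-cell-attracting group, Cxcl10 and Cxcl11 thus differed by more than the probe set SD and Cxcl9 and Cxcl16 by less, and the group's median of -0.41 lies between the values of Cxcl11 and Cxcl9.

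**Figure D2:**
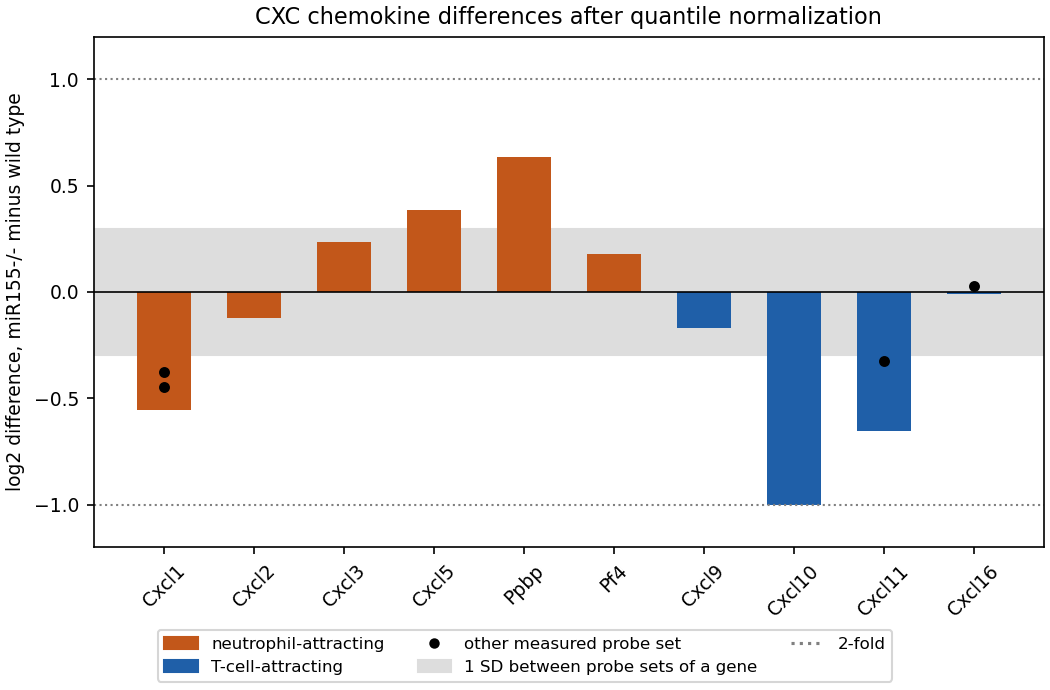
Log2 difference (knockout minus wild type) of each gene after quantile normalization, as bars for the probe set that stands for the gene and black points for its other measured probe sets, with a grey band of 1 SD between probe sets of a gene (0.29) and dotted lines at 2-fold. Cxcl10 reaches the lower line, Cxcl11 and Cxcl1 lie below the band, and Ppbp and Cxcl5 lie above it.

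Cxcl1, called KC in mice, is a CXCR2 ligand made early after LPS. It gave 980 in the wild type and 668 in the knockout at the brightest probe set, 1.47-fold lower (difference -0.55). The other probe sets gave 897 against 690 and 640 against 469, differences of -0.38 and -0.45, so 3 of 3 were lower. In deposited signal all 3 were higher in the knockout, by 0.06 to 0.23, less than the shift of the median gene.

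Cxcl2, or MIP-2, gave 10762 and 9881, a difference of -0.12. Cxcl3, a close relative with the same receptor, gave 14411 and 16933, a difference of 0.23, and was the brightest of all probe sets other than controls on the knockout array and the 14th brightest on the wild-type array. Both differences are smaller than the probe set SD and belong to 1 probe set each. At this end of the signal range the scaling mattered: relative to the median gene, Cxcl2 ranged from -0.32 to -0.13 and Cxcl3 from -0.04 to 0.23. The Cxcl3 difference exceeded that of Cxcl1 by 0.46 to 0.79 under every setting tried. The settings are not independent, and several give the same value. Both upstream regions hold the 11 shared bases, whose part in these values was not tested.

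Ppbp, the precursor of the neutrophil-activating peptide CXCL7 and a platelet granule protein, had the highest difference of the 10 genes. Its signal was 561 in the wild type and 869 in the knockout, 1.55-fold higher (difference 0.63), and 2.36-fold higher in deposited signal. Relative to the median gene it was higher by 0.61 to 0.70 in all 11 settings. Of the 501 genes nearest in level, 97.4% had a lower difference.

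Cxcl5, or LIX, a CXCR2 ligand that is also made by epithelial cells, gave 804 and 1051, 1.31-fold higher (difference 0.39). In deposited signal it was 649 and 1291, and relative to the median gene it was higher by 0.37 to 0.45. Pf4 was bright, at 7588 and 8580, with a difference of 0.18 that is smaller than the probe set SD. Relative to the median gene Pf4 was higher by 0.05 to 0.17. Ppbp, Cxcl5 and Pf4 were each read by 1 probe set.

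**Figure D3:**
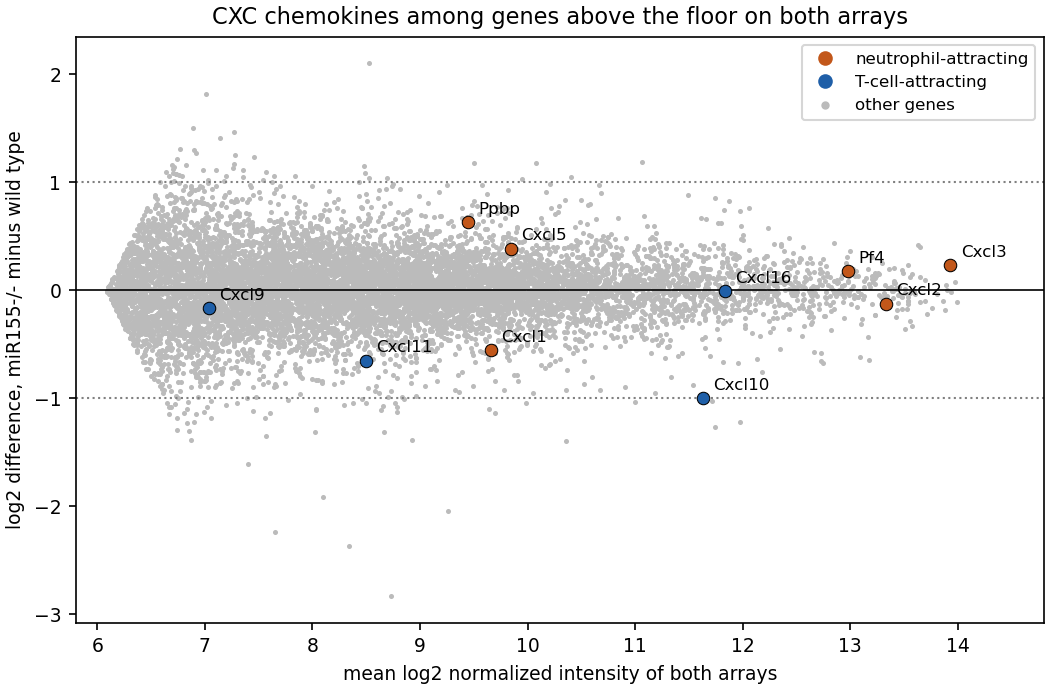
Log2 difference against mean log2 normalized intensity for genes above the floor on both arrays (grey points), with the 10 CXC chemokine genes coloured by group and dotted lines at 2-fold. Cxcl10 lies at the lower edge of the genes of its level, Ppbp near the upper edge, and Cxcl2, Cxcl3 and Pf4 at the bright end close to 0.

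Markers of megakaryocytes and platelets, the classical source of Ppbp and Pf4, were dim. Of the 12 listed, 10 were named and 8 were measured, 5 lower and 3 higher, 3 of the 8 as bounds, with a median difference of -0.0045. Their intensities summed to 1126 in the wild type and 1025 in the knockout. The platelet glycoprotein gene Gp5 had a difference of 0.62 (81.4 against 125), Gp1bb was at least 1.48-fold lower, and Itga2b, the platelet integrin chain, gave 133 and 132. The integrin partner Itgb3 and the platelet lectin receptor Clec1b were below the floor on both arrays. The part of platelets or megakaryocytes in the values of Ppbp and Pf4 was not tested.

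Neutrophil markers, which bear on both the ligands and their target cells, were lower in 8 of 12 measured genes (13 of 15 named), with a median of -0.35, while their summed intensity was 23441 and 25635. The granule protein genes Ltf (at least 1.65-fold lower) and Prtn3 (-0.56) differed most. Both were dim, with Ltf at 111 in the wild type and Prtn3 at 291. The 4 higher genes included S100a8 (4517 against 6093, 0.43) and Mmp8 (3736 against 4845, 0.37). Lcn2, the brightest of the list, differed by 0.01. Macrophage and monocyte markers were higher in 6 of 8 measured genes (8 of 10 named), with a median of 0.21 and summed intensities of 36417 and 37631. Mrc1 (1.06), Ccr2 (0.84) and Mertk (0.81), a mannose receptor, a chemokine receptor and a receptor for apoptotic cells, were the highest. Of the 4 measured probe sets of Ccr2, 1 was lower. The 2 lower genes were Cd14 (10690 against 7911, -0.43) and Fcgr1 (3008 against 2546, -0.24). The part of neutrophils, macrophages or monocytes in the values of Pf4, Ppbp and Cxcl5 was not tested.

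Markers of dendritic cells were lower in 8 of 12 measured genes (13 of 14 named), with a median of -0.09 and summed intensities of 37597 and 33644. Irf8 (-0.66), a regulator of dendritic cell differentiation, and Ccr7 (-0.55), the receptor of migrating dendritic cells, differed most. The integrin Itgax gave 4290 and 5331 and the class II gene H2-Aa gave 8637 and 7898, while Xcr1 was below the floor on both arrays, and the macrophage marker Adgre1 was also bright (7458 and 8568). T and NK cell markers had 3 of 9 measured, all higher and 2 of them as bounds, the largest being Cd8a (0.24, with 1 of its 2 measured probe sets lower) and Cd4 (at least 1.13-fold higher), with Cd3e below the floor, and sums of 356 and 400. Stromal and endothelial markers had 4 of 8 measured, 2 in each direction, led by Lum (at least 1.37-fold lower) and Col1a2 (-0.29), with Pecam1 and Cdh5 below the floor, and sums of 539 and 448.

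Receptors of the members and other CXC ligands were mostly dim in these cells. Of 16 listed genes 15 were named and 8 measured, 4 lower and 4 higher, with a median of -0.03, 1 at least 1.5-fold lower and none 1.5-fold higher. Cxcr3, the receptor of Cxcl9, Cxcl10 and Cxcl11, gave 80.7 and 111 (0.46), close to the floor, and Cxcr2 and Cxcr6 were below it on both arrays. Ccrl2, an atypical chemokine receptor of activated myeloid cells, was the bright exception at 1290 and 721, a difference of -0.84. Ackr4, a scavenging receptor, had a difference of 0.52 at 97.4 and 139.

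Among inducers and regulators of the neutrophil chemokines, 12 of 13 listed genes were measured, 8 lower and 4 higher, with a median of -0.07. Only Nfkbiz (-0.69), a nuclear IkB protein that helps NF-kB at secondary response genes, and the NF-kB subunit gene Rel (-0.64) passed 1.5-fold, both lower. The main NF-kB activator subunit Rela gave 1581 and 1674 (0.08). Zfp36, whose product destabilises chemokine messages in the mouse, differed by -0.02, and Zc3h12a, an RNase with a similar role, by -0.12.

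In the interferon pathway towards the CXCR3 ligands, 16 of 18 listed genes were measured, 11 lower and 5 higher, with a median of -0.11. Irf8 alone passed 1.5-fold (lower), and the next largest difference was that of Ifngr1 (0.44), a chain of the interferon gamma receptor. Irf1, an activator of Cxcl9 and Cxcl10, gave 1100 and 1005 (-0.13), and Irf9, of the complex that binds the ISRE, gave 1134 and 1139 (0.01). Stat2, its partner, had a difference of -0.43 and the interferon beta gene Ifnb1 one of 0.07 near the floor. The difference of Cxcl10 was thus larger than that of any of these 16 genes.

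Proteases that cut CXC chemokines were measured in 9 of 9 cases, 4 lower and 5 higher, with a median of 0.13 and none past 1.5-fold. Prtn3 (-0.56) and Ctsg (-0.41), neutrophil granule proteases, differed most. Adam10, which sheds Cxcl16 from the membrane, gave 1657 and 2141 (0.37), but 2 of its 3 probe sets were lower. Dpp4, which trims Cxcl10, gave 144 and 183 (0.35).

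The directions of these lists are relative to the bulk of genes: without scaling all 10 had medians above 0, from 0.18 to 0.70, beside the median gene at 0.54. Relative to that gene, the side changed with the scaling for the proteases (-0.028 with centring on the median) and for the T and NK cell markers (-0.14 without scaling), and with averaged probe sets for the proteases (-0.13) and for the receptors and other ligands (0.14). The neutrophil markers (-0.38 to -0.36) and the macrophage and monocyte markers (0.14 to 0.21) kept theirs under the 4 other scalings and with averaged probe sets. So did the inducers, the interferon pathway (-0.17 to -0.05) and the markers of megakaryocytes, dendritic cells (-0.24 to -0.04) and stroma, all below the median gene. With averaged probe sets only 1 stromal marker was measured.

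**Figure D4:**
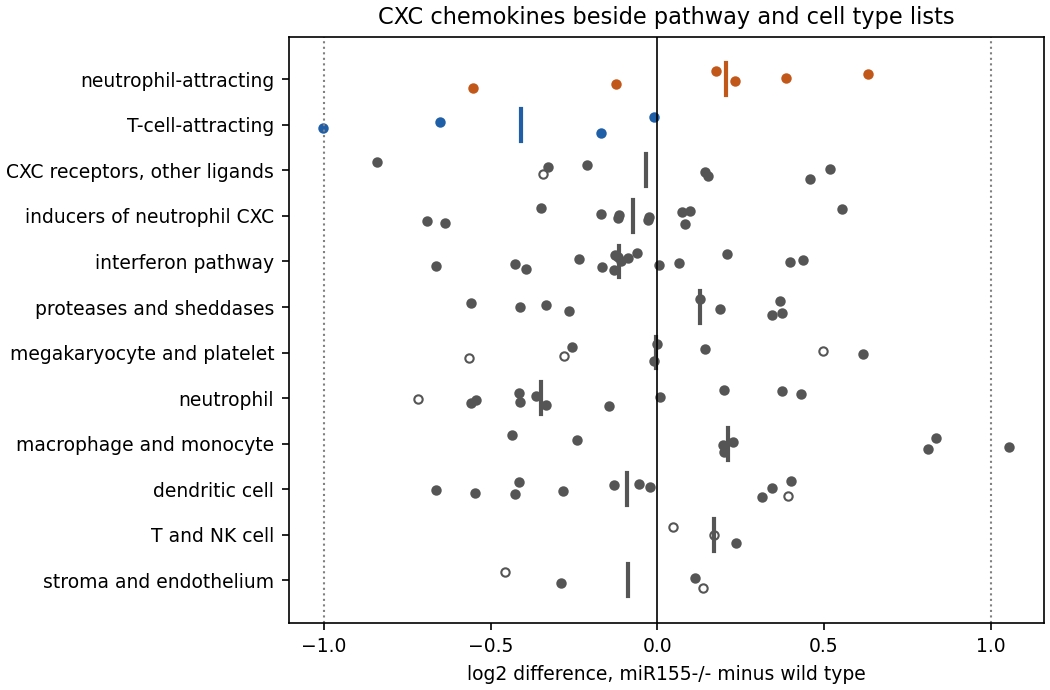
Log2 difference of each measured gene in the chemokine groups and in each pathway and cell type list, with points for genes, open points where 1 array lay at or below the floor (a bound), vertical bars for the median and dotted lines at 2-fold. The T-cell-attracting group has its median at -0.41, the neutrophil marker list at -0.35 and the neutrophil-attracting group at 0.20.

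**Figure D5:**
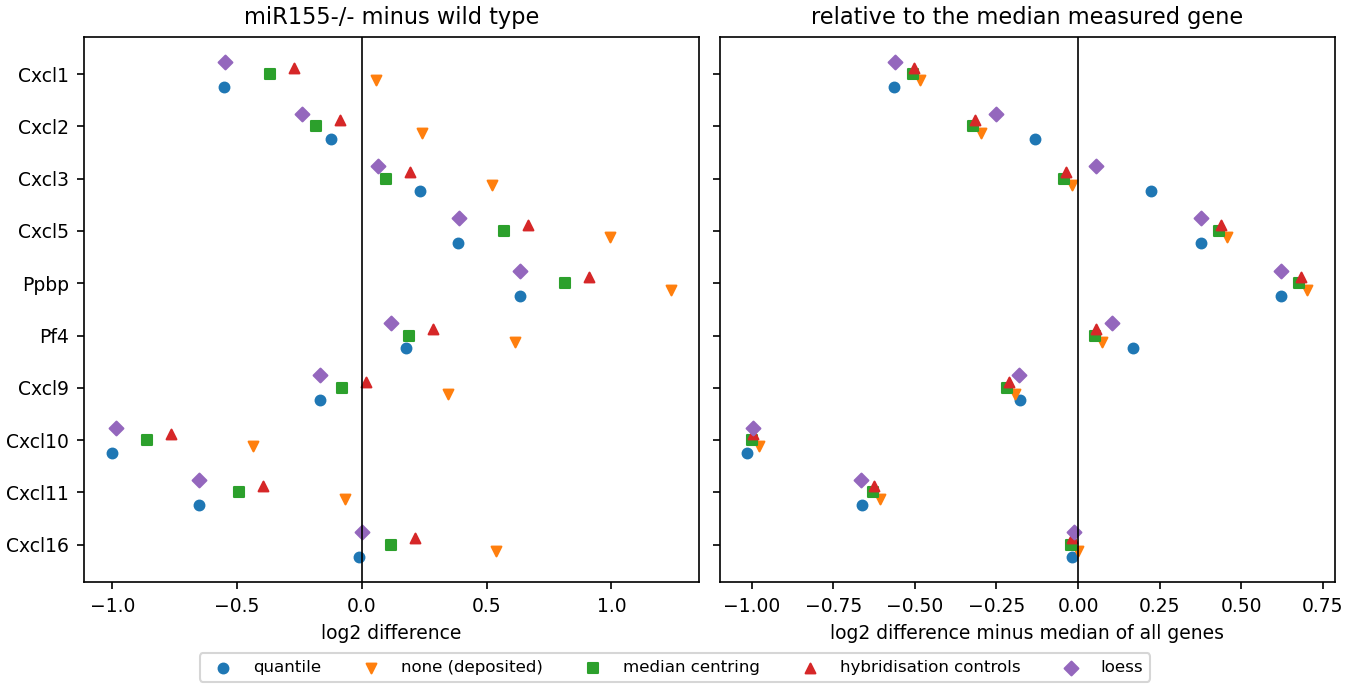
Log2 difference of each chemokine gene under 5 scalings of the arrays (left) and the same minus the median of all measured genes (right). Without scaling 2 genes (Cxcl10 and Cxcl11) lie left of 0, whereas on the right Cxcl1, Cxcl2, Cxcl9, Cxcl10 and Cxcl11 lie left and Cxcl5, Ppbp and Pf4 lie right under all 5.

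The plot of the 5 scalings shows which directions depended on the scaling. In deposited signal 8 of the 10 genes were higher in the knockout, as was the median gene. The difference between the medians of the groups was -0.61 after quantile normalization and between -0.86 and -0.43 over all settings. The neutrophil group's median stood 0.00 to 0.20 above the median gene, and that of the T-cell-attracting group lay at -0.67 to -0.26 relative to it. The ends at -0.86 and -0.67 come from the floor at the 75th percentile, where Cxcl9 was not measured and left the group. In the other settings the lowest values were -0.61 and -0.42.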

How the data were processed

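The authors deposited a table with a linear signal intensity for 45101 probe sets on each of the 2 arrays, 1 per genotype. Per the labels' protocols, biotinylated cRNA was made from 6 ug of total RNA. Which algorithm made the intensities, and whether they were scaled or carried detection calls, no source used here states. Array medians differed by 34.1%, more than the limit of 10%, so the 64 control probe sets were set aside and log2 intensities of the remaining 45037 were quantile normalized, which removes any difference in total signal. The floor was the 50th percentile of the normalized values. A difference with only 1 array above the floor is a lower bound ("at least").

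Genes were named from the platform annotation (34945 probe sets with 1 gene, 932 with several, 9160 unnamed here). The brightest probe set by mean stood for a gene. RefSeq (GRCm38.p6) gave symbols, gene order and sequences. The members and lists were chosen with earlier results of these data known. In each list, genes past 1.5-fold, or else the 2 largest differences, were named by rule, and receptors, inducers and defining markers were added for their role after values were seen. Steps were tested on simulated data. Python 3.11.15, numpy 2.4.6, pandas 2.3.3 and statsmodels 0.14.6 (loess) were used. Alternatives were 4 scalings, 3 floors, 2 choices of probe set and a pseudocount of 16.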

Additional observations from a re-analysis of the deposited data

How the results depend on the processing

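With 1 array per genotype, nothing below is a test, and signal over background limits Cxcl9 and the dimmer Cxcl11 probe set most. No paired analysis was possible because each genotype has a single array. Of 130 member values under the 10 alternatives, 117 stayed within the probe set SD of the reported value and 13 did not, all 13 without scaling. Many of the 117 could not move, so the count does not measure stability. A changed floor leaves a value as it was where both arrays lie above it. A choice of probe set cannot change a gene read by 1. No scaling, centring on the median and scaling on hybridisation controls differ only by a constant where both arrays lie above the floor. No member value that was past 1.5-fold changed sign. Smaller values did in at least 1 alternative: Cxcl1 at every probe set, Cxcl2, Cxcl9, the brighter Cxcl16 probe set and the dimmer Cxcl11 one. Relative to the median gene, Cxcl1, Cxcl2 and the dimmer Cxcl11 probe set stayed lower in every alternative that measured them. Without scaling the median of neutrophil-attracting members was 0.57 and the median of T-cell-attracting members 0.14, under a shift of the median gene of 0.54. The shift was 0.14 with centring on the median and 0.23 with scaling on hybridisation controls. Without scaling, members at least 2-fold lower numbered 0, at least 2-fold higher 1, at least 1.5-fold lower 0 and at least 1.5-fold higher 3. The median gene, at 0.54, was itself close to 1.5-fold higher there. Shares of all measured genes past these folds were not computed under the alternatives. The member counts given here therefore have no share to be read against. Members at least 2-fold lower also numbered 0 with centring on the median, scaling on hybridisation controls, loess and the pseudocount, since Cxcl10 lies at that limit. Members at least 1.5-fold lower numbered 1 with centring on the median, scaling on hybridisation controls and the mean of all probe sets, where Cxcl11 fell short, and members at least 1.5-fold higher numbered 2 with scaling on hybridisation controls. With the floor at the 75th percentile Cxcl9 was no longer measured.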

Other observations

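Of the 10 genes, 9 lie on chromosome 5, and their differences fell into a run along it, seen after the values were known. In RefSeq's order Cxcl5 (0.39), Ppbp (0.63), Pf4 (0.18) and Cxcl3 (0.23) come first and were higher in the knockout. Cxcl1 (-0.55), Cxcl2 (-0.12), Cxcl9 (-0.17), Cxcl10 (-1.003) and Cxcl11 (-0.65) follow and were lower. Relative to the median gene, Cxcl3 was lower in 3 of 10 alternatives (no scaling, centring on the median and scaling on hybridisation controls), so the turn then falls before it, and Cxcl9 was higher with averaged probe sets (by 0.01). Neighbouring genes of the same family are related in sequence, and whether their probe sets also bind each other's transcripts was not tested.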
